A study of Mus musculus with 6 samples.

Results

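The germline and meiosis genes described here are 35 genes with roles in germ cells. Many of them are silent in most somatic cells, and others, such as Kit, Prdm1 and Hells, are also used elsewhere. They were chosen by symbol from lists of germ cell, piRNA and meiosis genes, and all 35 have a row among the 22933 genes measured. Sequencing was of total RNA, depleted of ribosomal RNA, in mouse embryonic stem (ES) cells, which are cultured from the early embryo, and in which both Ezh2 alleles are floxed (Ezh2 fl/fl). The tamoxifen group is 3 libraries from cells given 800 nM 4-hydroxytamoxifen for 96 h to delete Ezh2, with RNA taken 4 days after treatment. The untreated group is 3 libraries from the same Ezh2 fl/fl cells with no tamoxifen, labelled Ezh2 wild type. All cells were grown on gelatin with 1000 U/ml leukaemia inhibitory factor, 10% fetal calf serum and 5% serum replacement. The labels do not name the Cre driver, the number of ES cell clones or any vehicle given to the untreated cells, and they do not say whether replicates were separate cultures, so p-values measure only the spread between these libraries. Ezh2 is the catalytic subunit of PRC2, the complex that methylates histone H3 at lysine 27.

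Germ cells arise from the early embryo as primordial germ cells, and in the gonad they enter meiosis, in which homologous chromosomes pair along the synaptonemal complex, exchange DNA and separate. The piRNA pathway silences transposons in the same cells with small RNAs carried by Piwi proteins. In ES cells many of these genes are held low by DNA methylation and by the variant Polycomb complex PRC1.6, which binds promoters through MGA with MAX and through E2F6 with its partner. The sequence CACGTG, an E-box, is the site known for MGA and MAX, and GCGGGA is the core of sites known for E2F proteins.

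To show what these promoters look like, RefSeq sequences (GRCm38.p6) from 250 bases before to 50 bases after a gene's start were searched for both motifs. Of the 35 genes, 31 had a promoter entry. CACGTG stood in 13 of them (41.9%), compared with 8.09% of all 27025 genes with an entry and 8.91% of 17491 protein-coding genes. GCGGGA on either strand (GCGGGA or TCCCGC) stood in 15 (48.4%), compared with 22.0% of all genes and 28.4% of protein-coding genes. Both motifs were present in 8 of the 31 (25.8%), compared with 2.65% and 3.57%, and 11 held neither. The median number of CG dinucleotides per promoter was 20 for these genes, 7 over all promoters and 13 over those of protein-coding genes. Both motifs contain CG, and a match to the letters is not evidence of binding. Counted per promoter, as some genes have several, CACGTG stood in 16 of 38 (42.1%) and GCGGGA in 18 of 38 (47.4%).

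The promoters below show the range from several matches to none, each 5′ to 3′ on the gene's strand with the motifs in capitals. Mael has both motifs and had lower values in all tamoxifen libraries. Sycp3 and Hormad1 each hold CACGTG at 2 places. Slc25a31 holds each motif once. Tex13b holds neither and had higher values in all tamoxifen libraries. Zcwpw1, whose sequence is not printed, also holds neither and had lower values in all of them. Kit and Rec8 were lower in the same way and hold GCGGGA without CACGTG. Mov10l1 holds CACGTG without GCGGGA and was also lower in all tamoxifen libraries. The lower genes named here thus include some with CACGTG and some without it. A link between motif and direction was not tested.
Mael, chr1:166238695-166238994, minus strand: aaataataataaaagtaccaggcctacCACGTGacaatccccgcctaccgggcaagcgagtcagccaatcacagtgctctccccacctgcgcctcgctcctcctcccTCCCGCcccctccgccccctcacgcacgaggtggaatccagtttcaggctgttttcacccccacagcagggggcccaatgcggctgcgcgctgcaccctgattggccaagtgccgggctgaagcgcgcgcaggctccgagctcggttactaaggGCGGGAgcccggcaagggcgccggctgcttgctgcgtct
Sycp3, chr10:88459337-88459636, plus strand: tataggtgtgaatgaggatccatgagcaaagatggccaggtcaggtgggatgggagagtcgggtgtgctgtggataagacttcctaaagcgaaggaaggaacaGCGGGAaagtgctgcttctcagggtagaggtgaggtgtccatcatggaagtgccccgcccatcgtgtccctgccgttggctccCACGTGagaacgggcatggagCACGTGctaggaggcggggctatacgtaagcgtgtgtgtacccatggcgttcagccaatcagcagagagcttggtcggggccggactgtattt
Hormad1, chr3:95559427-95559726, plus strand: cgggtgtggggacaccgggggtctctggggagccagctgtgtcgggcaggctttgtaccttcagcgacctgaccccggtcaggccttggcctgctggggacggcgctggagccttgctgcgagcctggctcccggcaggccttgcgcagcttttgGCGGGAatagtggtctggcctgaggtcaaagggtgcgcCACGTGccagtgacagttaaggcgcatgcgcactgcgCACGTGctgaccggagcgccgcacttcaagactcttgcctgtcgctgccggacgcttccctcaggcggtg
Slc25a31, chr3:40708621-40708920, plus strand: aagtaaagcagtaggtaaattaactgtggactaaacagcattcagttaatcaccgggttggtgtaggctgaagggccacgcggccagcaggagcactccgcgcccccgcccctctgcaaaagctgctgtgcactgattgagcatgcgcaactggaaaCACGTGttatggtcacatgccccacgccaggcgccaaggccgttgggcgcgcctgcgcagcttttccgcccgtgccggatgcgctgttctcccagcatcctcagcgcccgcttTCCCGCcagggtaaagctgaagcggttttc
Tex13b, chrX:140813384-140813683, minus strand: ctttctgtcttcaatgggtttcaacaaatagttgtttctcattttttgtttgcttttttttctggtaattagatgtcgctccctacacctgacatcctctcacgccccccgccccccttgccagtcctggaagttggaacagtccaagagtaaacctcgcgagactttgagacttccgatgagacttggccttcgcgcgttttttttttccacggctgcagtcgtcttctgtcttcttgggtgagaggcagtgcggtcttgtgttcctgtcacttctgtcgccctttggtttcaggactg
In Sycp3 the E-boxes begin 64 and 43 bases before the annotated start, and in Hormad1 57 and 20 bases before it.

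**Figure D1:**
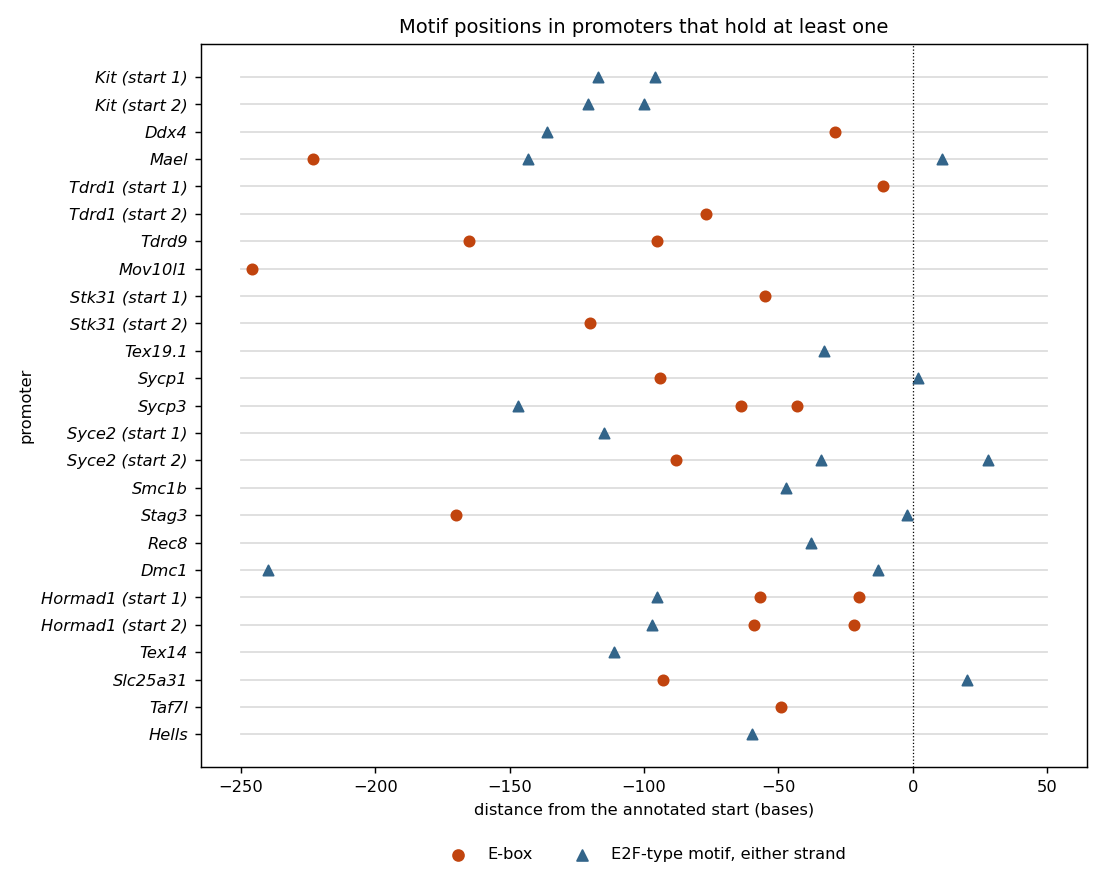
Positions of CACGTG (circles) and of GCGGGA on either strand (triangles) in the promoters of the members with a RefSeq entry and at least 1 match, in bases from the annotated start (dotted line at 0). Matches stand on both sides of the start, and Tex13b, which has none, is not drawn.

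Each deposited value is a normalized signal that solved into whole numbers, of which 1 was taken as the reads behind it (recovered reads), and both are given here. The solution could not be checked against raw counts, which were not used here. Recovered reads per library totalled 3847177, 2334458 and 5110226 in the tamoxifen libraries and 3856584, 5689786 and 2676372 in the untreated libraries, so a gene with few reads has a wide counting error. Levels called RPM below are recovered reads per 1000000, scaled between libraries. Ezh2 itself averaged 2475 ± 190 in tamoxifen libraries and 3756 ± 361 in untreated libraries (normalized value, SD, n = 3 each), a log2 fold change of -0.60 that limma did not call (adjusted p = 0.195), and -0.40 on scaled reads. Ezh2 reads were thus still counted after treatment. A value for the whole gene does not tell deleted exons from the others. All 8 ES cell markers had at least 10 reads on average. Their summed level was 1169 to 1310 RPM in tamoxifen libraries and 1320 to 1407 in untreated libraries. By gene they were mixed on deposited values, with 3 higher, 5 lower and none called. Nanog was higher without overlap (log2 fold change 0.57, limma adjusted p = 0.357). Zfp42 was lower without overlap (-0.26, limma adjusted p = 0.551). Primitive endoderm markers summed to 509 to 560 RPM after tamoxifen and 220 to 254 without it, with 8 of 8 higher and none called. Lama1 gave most of this sum, with 7918 reads in all, and Dab2 came next with 546. Gata4, Gata6 and Sox17 were all detected. Trophoblast markers summed to 80.4 to 91.7 RPM in tamoxifen libraries and 30.2 to 76.6 in untreated libraries, with 7 of 7 tested higher and none called. Krt18 (1064 reads in all) and Krt8 (523) gave most of this sum. Eomes had 68 reads, Cdx2 8 and Elf5 1, and only 3 of the 8 averaged at least 10. Fibroblast markers summed to 5.88 to 14.0 and 5.36 to 12.1 RPM, with Lum at 0, and Sertoli and gonadal markers to 7.02 to 7.35 and 6.97 to 11.9, in the same order of groups. Of the defining germ cell markers, Dazl had 435 reads in all, Ddx4 477, Dnd1 214, Dppa3 68, Nanos3 28 and Sycp3 6, so transcripts of some were scarce. The part of these other cell types in the germline values was not tested. In bulk RNA, fewer expressing cells and less RNA per cell cannot be told apart.

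No germline or meiosis gene passed the test over all genes after tamoxifen. Of the 35, 34 passed the filter on low values (Spo11 did not) and limma called 0 at an adjusted p under 0.05, with 0.428 the smallest adjusted p. A gene that was not called may still have changed, within the 95% interval given beside its fold change. Over all 17427 genes tested, 0.195% were called. At an unadjusted p under 0.05 there were 4 of 34 (11.8%), against 9.34% of all genes tested, so the count is near the background. They were Tex13b, higher after tamoxifen (5.34% of all genes in that direction), and Tex11, Mael and Zcwpw1, lower (3.99%). In 7 of 34 (20.6%) the 3 tamoxifen values did not overlap the 3 untreated values, against 15.3% of all genes. Tex13b was above its untreated values (7.92% of all genes were), and Tex11, Mael, Zcwpw1, Mov10l1, Kit and Rec8 were below theirs (7.33%). Nothing particular to these genes is read from these shares.

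The median log2 fold change of the 34 genes was -0.08, with 12 higher and 22 lower, beside -0.0037 over all genes tested. On recovered reads scaled to RPM, the same 34 split into 16 higher and 18 lower, with a median of -0.05. There 0 were called by limma, beside 0.0172% of all genes, and 3 had an unadjusted p under 0.05, beside 7.96%. Only 25 of the 35 had at least 10 reads on average. In these 25 the deposited values gave 9 higher and 16 lower with a median of -0.11, against -0.01 for all genes at that depth. The reads gave 13 higher and 12 lower with a median of 0.0023. On deposited values the 34 thus leaned lower (64.7%, beside 50.5% of all genes tested). On reads their split was near that of all genes (52.9% lower, beside 50.5%). In the 25, the lean was present on deposited values and absent on reads.

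**Figure D2:**
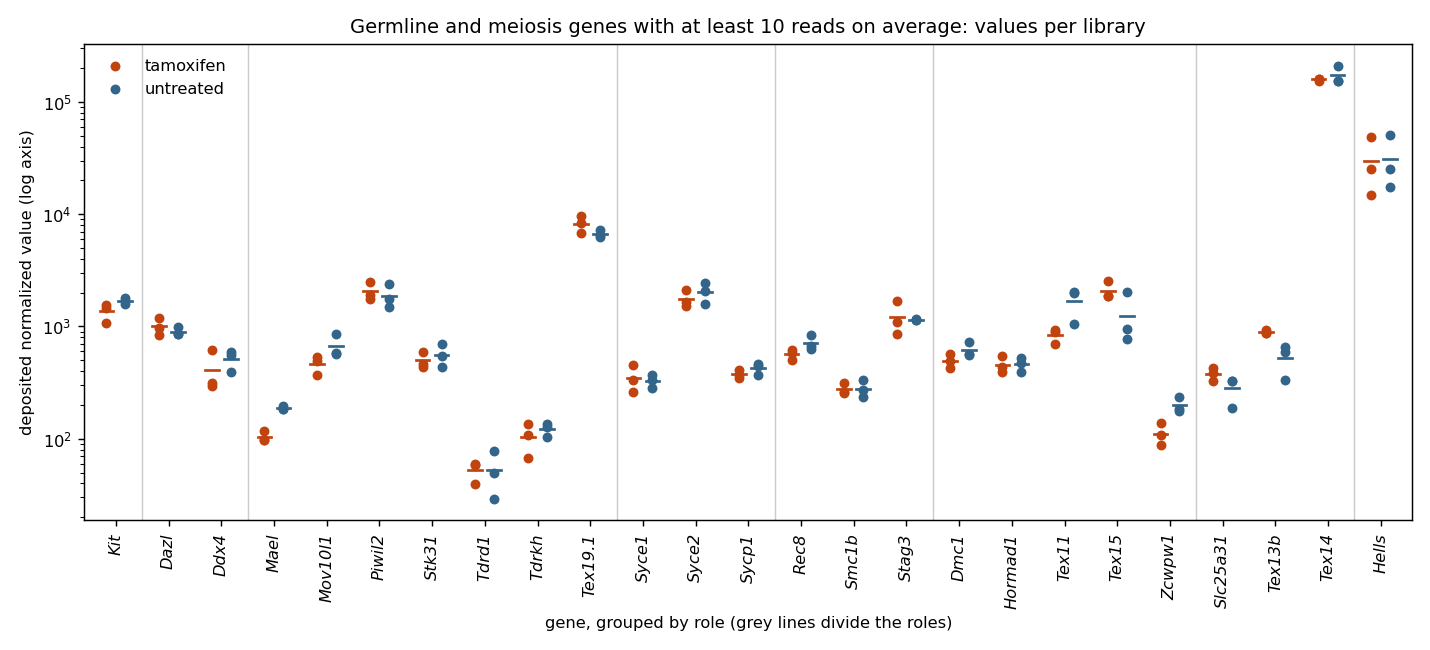
Deposited normalized value (log axis) of each of the 25 members with at least 10 recovered reads on average, by library, grouped by role, with tamoxifen points to the left of untreated points and short lines for group means. Tex14 stands far above the others, at 153525 to 209929, and most genes have overlapping groups.

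Primordial germ cell factors are represented by Kit, the receptor for stem cell factor that germ cell precursors need to survive and migrate, and by Prdm1 and Nanos3, which act in their specification and maintenance. Kit (chr5:75574916-75656722, GRCm38) had values of 1071, 1450 and 1558 in tamoxifen libraries and 1791, 1674 and 1596 in untreated libraries. All 3 tamoxifen values were below all untreated ones, by as little as 1558 against 1596. The log2 fold change was -0.33 (95% interval -0.73 to 0.07, limma adjusted p = 0.598). Prdm1 had 10, 10 and 13 reads in tamoxifen libraries and 6, 15 and 3 in untreated ones, and Nanos3 had 5, 5 and 5 against 7, 3 and 3, too few for a fold change to be read.

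Of the germ cell RNA-binding proteins, Dazl promotes translation in germ cells and Ddx4 (Vasa) is the helicase of germ granules. Dazl (chr17:50279395-50293636) had 836, 963 and 1197 in tamoxifen libraries and 993, 856 and 853 in untreated libraries. The groups overlapped, at a log2 fold change of 0.14 (-0.27 to 0.55, limma adjusted p = 0.791), and 0.32 on scaled reads. Ddx4 had 613, 292 and 312 in tamoxifen libraries and 594, 390 and 554 in untreated libraries. One tamoxifen library was above all untreated ones, and the log2 fold change was -0.40 (-1.23 to 0.43, limma adjusted p = 0.766). On scaled reads it was -0.10.

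Among the piRNA and transposon control genes, Mael, a germ granule protein needed to silence transposons in mouse spermatogenesis, stood lowest against its untreated level. Its values were 97.7, 97.7 and 117 in tamoxifen libraries and 186, 185 and 194 in untreated libraries (chr1:166201201-166238747). The groups were separate, with averages of 104 ± 11.4 and 188 ± 5.14 (SD, n = 3 each). The log2 fold change was -0.85 ± 0.27 (SE, -1.52 to -0.19), but limma's adjusted p over all genes was 0.448. Behind these values stood 17, 16 and 36 reads in tamoxifen libraries and 57, 42 and 16 in untreated libraries. Scaled reads gave a log2 fold change of -0.76. They were 5.00, 5.21 and 5.74 RPM in tamoxifen libraries and 12.6, 7.45 and 8.57 in untreated libraries. Relative to its mean, the untreated spread was wider on scaled reads (9.53 ± 2.70 RPM, SD), so the SD of 5.14 does not show the counting spread. The difference thus rests on few reads and failed the correction.

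Mouse germ cells and placenta use Tex19.1 to hold down retrotransposons. Per kb of exon it was the most expressed of these genes after Tex14 and Hells, at 34.6 RPM. It had 8308, 9593 and 6821 in tamoxifen libraries and 6498, 7162 and 6310 in untreated libraries. The tamoxifen values were higher on average and overlapped the untreated ones, at a log2 fold change of 0.30 (-0.06 to 0.65, limma adjusted p = 0.594). It has a paralogue, Tex19.2, and how reads shared by the copies were counted is not given in the sources used here. Piwil2 (Mili), a Piwi protein that loads piRNAs in mouse testis, had 1771, 1888 and 2482 in tamoxifen libraries and 1499, 2375 and 1771 in untreated libraries, with no separation and a log2 fold change of 0.13 (-0.39 to 0.65), or 0.07 on scaled reads. Mov10l1, the helicase that starts piRNA processing, had 536, 370 and 487 in tamoxifen libraries and 584, 857 and 574 in untreated libraries, which did not overlap, at -0.52 (-1.10 to 0.05, limma adjusted p = 0.551). Its scaled reads gave -0.25 and overlapped. Stk31, a germ cell kinase, had 438, 467 and 594 in tamoxifen libraries and 701, 545 and 437 in untreated libraries. It gave -0.15 on the deposited values and 0.16 on scaled reads, so its direction was not fixed. Tdrd1 and Tdrkh, Tudor proteins that bind Piwi proteins, had values of 39.2 to 59.1 and 67.4 to 136 in tamoxifen libraries and 29.2 to 78.5 and 105 to 136 in untreated libraries, with overlap in both. Asz1 and Tdrd9 had 0 to 5 and 1 to 4 reads per library in tamoxifen libraries and 1 to 3 and 1 to 6 in untreated libraries. Tdrkh shares 2255 exon bases with Oaz3 on the opposite strand, which had 2 reads in all.

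**Figure D3:**
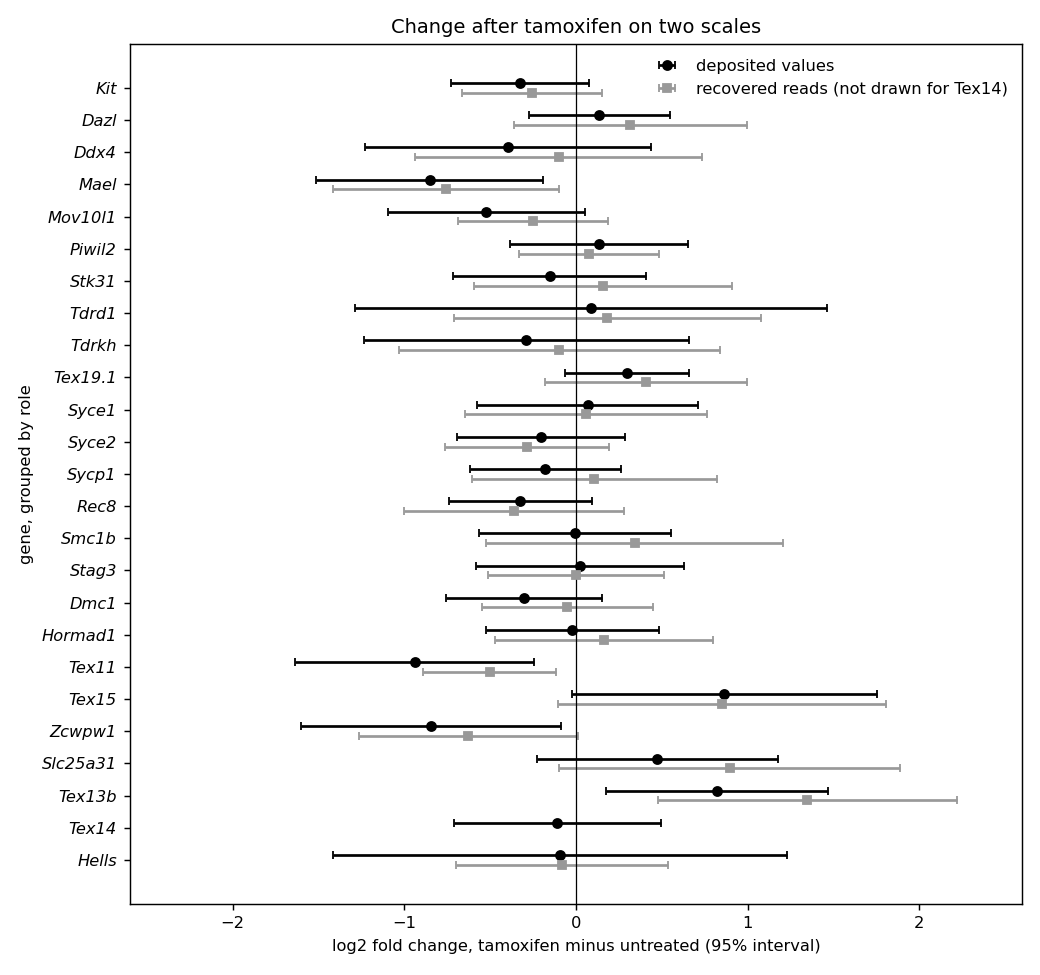
Log2 fold change, tamoxifen minus untreated, with its 95% interval, for the 25 members with at least 10 reads on average, from deposited values (circles) and from recovered reads (squares; Tex14 not drawn because its interval runs past the axis). Tex11, Mael and Zcwpw1 lie below 0 and Tex13b above 0 on deposited values, and none was called after correction.

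In the synaptonemal complex, Sycp1 forms the transverse filaments, Syce1 and Syce2 the central element, and Sycp2 and Sycp3 the lateral elements. Syce2 was the strongest, with 1518, 1635 and 2102 in tamoxifen libraries and 2433, 2054 and 1595 in untreated libraries. The groups overlapped, at a log2 fold change of -0.20 (-0.69 to 0.28, limma adjusted p = 0.768). Sycp1 had 370, 350 and 409 in tamoxifen libraries and 468, 448 and 369 in untreated libraries, and Syce1 had 262, 457 and 331 against 331, 370 and 281. Sycp1 gave -0.18 on deposited values and 0.11 on scaled reads, and Syce1 gave 0.07 (-0.57 to 0.71). Sycp3 had 1 read in each of the 6 libraries, and Sycp2 had 2, 4 and 12 reads in tamoxifen libraries and 13, 16 and 0 in untreated libraries. Sycp3 was thus at the lowest level that can be counted in both groups, and Sycp2 varied between libraries of the same group. Sycp3 shares 660 exon bases with Chpt1 on the opposite strand, and strand use in counting is not given in the sources used here.

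Smc1b, Stag3 and Rec8 are meiosis-specific subunits of cohesin, the ring that holds sister chromatids together. Rec8 had 582, 503 and 613 in tamoxifen libraries and 835, 671 and 629 in untreated libraries. The groups did not overlap, at a log2 fold change of -0.32 (-0.74 to 0.09, limma adjusted p = 0.618). Stag3 had 1693, 857 and 1090 in tamoxifen libraries and 1139, 1168 and 1138 in untreated libraries. One tamoxifen library was high, and the log2 fold change was 0.02 (-0.59 to 0.63), and 0.0023 on scaled reads. Smc1b had 263, 253 and 312 in tamoxifen libraries and 331, 234 and 272 in untreated libraries, and its fold change of -0.01 became 0.34 on scaled reads.

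The genes of meiotic recombination and the chromosome axis included Tex11 and Tex15, which had the largest deposited-value differences among the 25 members that averaged 10 reads or more. With scaled reads the largest were those of Tex13b and Slc25a31, described below. Tex11, an X-linked gene needed for crossovers in mouse spermatocytes, had 934, 701 and 896 in tamoxifen libraries and 1042, 2024 and 1965 in untreated libraries (chrX:100838648-101059667). The groups were separate, with averages of 844 ± 125 and 1677 ± 551 (SD, n = 3 each). The log2 fold change was -0.94 ± 0.29 (SE, -1.64 to -0.24) and limma's adjusted p was 0.428. On recovered reads the difference was smaller, at -0.50, with 30.3, 31.3 and 34.1 RPM in tamoxifen libraries and 46.1, 42.9 and 47.2 in untreated libraries. These also did not overlap.

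Zcwpw1, a histone methylation reader that acts with the recombination machinery in mouse meiosis, had 137, 107 and 88.3 in tamoxifen libraries and 185, 176 and 234 in untreated libraries (chr5:137787798-137822621). The groups were separate, with a log2 fold change of -0.84 ± 0.31 (SE, -1.60 to -0.09) and a limma adjusted p of 0.506. Scaled reads gave -0.63. Reads were few, at 30, 20 and 33 in tamoxifen libraries and 49, 51 and 23 in untreated libraries. Zcwpw1 shares 468 exon bases with Pilra on the opposite strand, which had 1 read. Tex15, which links DNA repair and piRNA-directed silencing in mouse testis, was higher in tamoxifen libraries on average, with 2530, 1878 and 1850 in tamoxifen libraries and 2005, 944 and 768 in untreated libraries. The first untreated library was in the range of the tamoxifen libraries, and the log2 fold change of 0.86 (-0.03 to 1.75), 0.85 on scaled reads, was not called (limma adjusted p = 0.533).

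Dmc1, the meiotic recombinase, had 429, 565 and 497 in tamoxifen libraries and 565, 721 and 554 in untreated libraries. The groups overlapped, and the log2 fold change was -0.30 (-0.76 to 0.15, limma adjusted p = 0.679). On scaled reads it was -0.05. Hormad1, an axis protein that monitors pairing, had 389, 545 and 438 in tamoxifen libraries and 389, 477 and 524 in untreated libraries, with no separation (-0.02, -0.53 to 0.48). Spo11, which makes the DNA breaks that start recombination, had 1, 0 and 0 reads in tamoxifen libraries and 0, 2 and 1 in untreated libraries. Mei1 had 2, 1 and 6 reads against 1, 8 and 3. With 3 reads as the limit, a count of 0 allows a level of up to 0.478 RPM in tamoxifen replicate 3, where a read weighs least, and 1.61 RPM in untreated replicate 3, where it weighs most. This covers counting error only.

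Tex13b, an X-linked testis gene, was the member with separate groups and higher tamoxifen values (chrX:140808307-140813433). It had 873, 931 and 875 in tamoxifen libraries and 590, 650 and 335 in untreated libraries, for averages of 893 ± 32.9 and 525 ± 167 (SD, n = 3 each). The log2 fold change was 0.82 ± 0.27 (SE, 0.17 to 1.47) and limma's adjusted p was 0.457. The reads behind it were 21, 20 and 39 in tamoxifen libraries and 12, 19 and 2 in untreated libraries, and scaled reads gave 1.35. One untreated library thus held 2 reads. Slc25a31, a sperm ADP/ATP carrier, had 426, 327 and 388 in tamoxifen libraries and 329, 329 and 187 in untreated libraries. These overlapped narrowly, at a log2 fold change of 0.47 (-0.23 to 1.17, limma adjusted p = 0.674). On scaled reads it was 0.89, with 1 read in untreated replicate 3. Tex101 and Taf7l, also testis genes, had 0 to 4 and 2 to 5 reads per library in tamoxifen libraries and 0 to 6 and 1 to 9 in untreated libraries.

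Tex14, a protein of the bridges between germ cells, stood apart from all other members because of its level. It took 6.55%, 5.04% and 6.24% of all recovered reads in tamoxifen libraries and 5.10%, 12.2% and 8.20% in untreated libraries. It ranked first or second among all genes in every library. The mean share was 5.94 ± 0.795% in tamoxifen libraries and 8.51 ± 3.58% in untreated libraries (SD, n = 3 each), a difference within the spread (exact permutation test, two-sided p = 0.3, where 0.1 is the smallest possible). Deposited values hid most of this spread, at 153525 to 160356 in tamoxifen libraries and 153525 to 209929 in untreated libraries, with a log2 fold change of -0.11 (-0.71 to 0.49, limma adjusted p = 0.905). GENCODE vM21 places the small RNA genes Rnu1a1, Gm22068 and Rnu3b1 to Rnu3b4 inside introns of Tex14 on its strand (chr11:87405065-87555823). None of them has a row of its own in the table. Whether reads of these small RNAs were counted as Tex14 was not tested, so the level is given for the row and not for the Tex14 message.

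**Figure D4:**
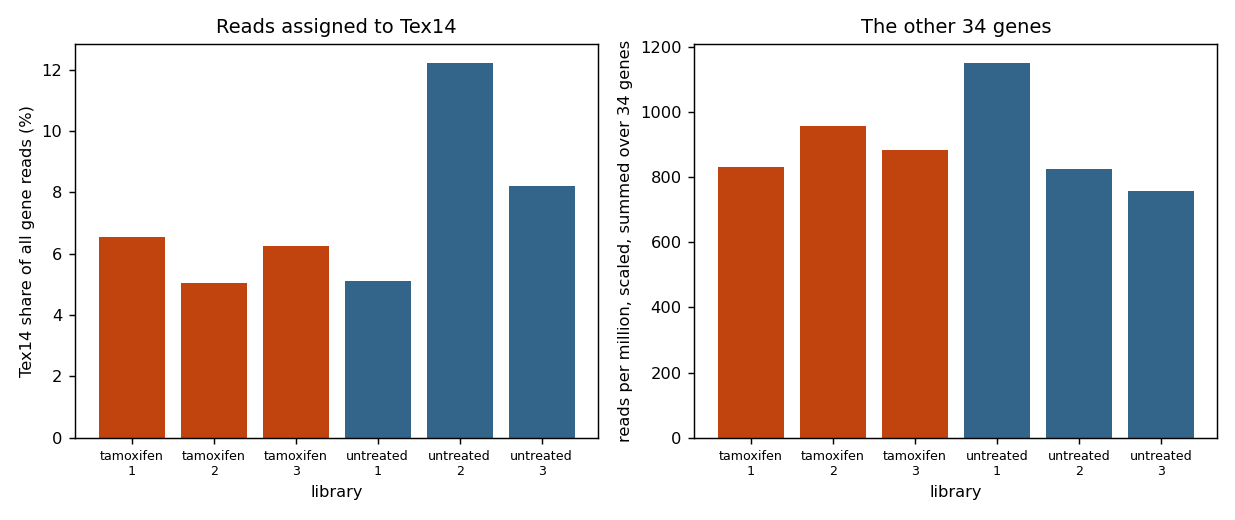
Left, share of all recovered reads assigned to Tex14 in each library (percent). Right, summed level of the other 34 members in each library (scaled RPM). The Tex14 share is 5.04 to 6.55% in tamoxifen libraries and 5.10 to 12.2% in untreated libraries, and the sums are 831 to 958 and 757 to 1152 RPM.

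Without Tex14, the other 34 members summed to 831, 958 and 882 RPM in tamoxifen libraries and 1152, 826 and 757 in untreated libraries. The averages were 891 ± 63.9 and 911 ± 211 (SD, n = 3 each), with an exact permutation p of 1.0 (two-sided). Hells, a chromatin remodeller needed for DNA methylation and for meiosis in mouse and used by dividing cells in general, made up the largest share of this sum. Its values were 14791, 48420 and 25185 in tamoxifen libraries and 50271, 25184 and 17271 in untreated libraries, which spanned 3.40-fold with no separation. Its RPM spanned 1.84-fold, from 246 to 354 in tamoxifen libraries and from 249 to 453 in untreated libraries. The log2 fold change was -0.09 (-1.41 to 1.23, limma adjusted p = 0.982).

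Levels per length gave the members an order, which depends on the length used. Per kb of the whole gene with introns, mean RPM was 29.7 for Tex19.1, 7.65 for Hells and 0.175 for Tex11. Mean RPM per kb of exon were 14881 for the Tex14 row, 42.6 for Hells, 34.6 for Tex19.1, 24.2 for Syce2 and 14.5 for Piwil2. Tex11, Dmc1, Stk31, Stag3, Mov10l1, Tex15, Kit, Ddx4, Hormad1 and Syce1 lay between 5.19 and 10.7. At the low end of the 25, Tdrd1 and Tdrkh had 0.518 and 0.400. A split of the members by promoter motif gave a median log2 fold change of -0.17 in 10 genes with CACGTG (-0.85 to 0.47) and -0.10 in 12 without it (-0.84 to 0.82), and the ranges overlapped.

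Other germline genes were taken from a list of genes of the same roles. Of 88 listed, 84 were in the table and 69 were tested, with 31 higher, 38 lower and a median log2 fold change of -0.04, and limma called 0. At an unadjusted p under 0.05 there were 4 of 69 (5.80%), compared with 9.34% of all genes. Prdm14, a factor of primordial germ cells that ES cells also express, had 1167, 661 and 857 in tamoxifen libraries and 662, 545 and 504 in untreated libraries, at 0.62 (limma adjusted p = 0.526). The groups overlapped at 661 against 662. Dnd1, which protects germ cell mRNAs, had 1705, 1449 and 1856 in tamoxifen libraries and 2077, 2197 and 2628 in untreated libraries, at -0.46 (limma adjusted p = 0.440) and -0.97 on scaled reads. Boll, a relative of Dazl, had 409, 409 and 361 in tamoxifen libraries and 467, 623 and 554 in untreated libraries, at -0.47 (limma adjusted p = 0.511) and -0.08 on scaled reads. Ifitm1, a membrane protein of primordial germ cells, had 1373, 1174 and 1182 in tamoxifen libraries and 1355, 1700 and 1740 in untreated libraries, at -0.36 (limma adjusted p = 0.529) and -0.81 on scaled reads. Ifitm1 overlapped between groups, and Dnd1 and Boll did not. Of the 69 tested, 7 (10.1%) did not overlap, all of them lower after tamoxifen. Over all genes tested 15.3% did not overlap, with 7.33% lower.

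Of the 16 other piRNA and germ granule genes in the table, 11 had at least 10 reads on average, with 1 higher and 10 lower, a median of -0.38 and 0 called. On scaled reads the same 11 gave 2 higher and 9 lower, with a median of -0.17. Meiotic entry genes (7 with at least 10 reads) gave 4 higher and 3 lower, with a median of 0.12, and 5 higher and 2 lower on scaled reads. Primordial germ cell genes (6) gave 3 higher and 3 lower, with a median of -0.10. Genes of the other meiotic recombination list (13) gave 4 higher and 9 lower, with a median of -0.13, and those of synapsis and telomere attachment (5) gave 3 higher and 2 lower, with a median of 0.08, and 5 higher and 0 lower on scaled reads. Over all 11844 genes with at least 10 reads on average, 48.2% were higher and 51.8% lower, with a median of -0.01. On scaled reads these shares were also 48.2% and 51.8%, with a median of -0.02. No gene of these lists was called.

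A list of 15 genes known to hold germline genes silent, made of PRC1.6 subunits, DNA methylation genes and histone H3 lysine 9 methyltransferases, was tested in full. None was called by limma, and 1 of 15 (6.67%) had an unadjusted p under 0.05, against 9.34% of all genes, with 6 higher, 9 lower and a median of -0.05. On scaled reads the split was 4 higher and 11 lower with a median of -0.21. Pcgf6, the PRC1.6 subunit that defines the complex, had 1382, 1683 and 1752 in tamoxifen libraries and 2414, 2122 and 1945 in untreated libraries, at -0.43 ± 0.14 (SE, limma adjusted p = 0.464). Its groups did not overlap, which held for 1 of the 15 (6.67%), against 15.3% of all genes tested. Dnmt3a, a DNA methyltransferase, had 6559, 7162 and 5100 in tamoxifen libraries and 12281, 8564 and 6071 in untreated libraries, at -0.47 (limma adjusted p = 0.658), with overlap. L3mbtl2 and Uhrf1 gave -0.20 and -0.26, with limma adjusted p-values of 0.660 and 0.707, and -0.33 and -0.40 on scaled reads.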

How the data were processed

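The authors deposited 1 normalized signal per Ensembl gene and library. TopHat2, bedtools, DESeq2 and the build mm9 are listed in the submitters' processing notes, with no tool version. The counting rule, strand setting and annotation are not given in the sources used here. All 100305 values above 0 solved as 9.73 × k × (m + 0.1) / (k + 0.1) with whole numbers k and m. The k were taken as recovered reads, and 98.8% had a single solution. The deposited signal was compared as log2(value + 1) with limma 3.58.1 (trend, R 4.3.3) over 17427 genes whose mean value reached 10, Benjamini-Hochberg adjusted, calling at 0.05. Recovered reads were scaled by median-of-ratios to RPM (reads per 1000000) and compared as log2(RPM + 0.5), as an alternative. Deposited values spread less between libraries than scaled reads for Tex14 and for untreated Mael, and more for Hells. Tex14 stood at 153525 in tamoxifen replicate 1 and in untreated replicates 1 and 3. SDs and intervals on deposited values thus carry the spread left by the authors' normalization. Its effect on them was not tested. The 0.5 added to RPM shrinks fold changes of low genes. On deposited values the weight of the added 1 differs by gene and library. In Tdrd9 in untreated replicate 1 and Asz1 in untreated replicate 2, 1 read stood for 0.885, less than the added 1. In Sycp3, 1 read stood for 36.3 to 125, and there the added 1 does little. A count of 0 in 1 library can then set the fold change. Sycp2, with 0 in untreated replicate 3, gave 1.37 on deposited values and -0.08 on scaled reads. Fold changes ran from -11.4 to 11.4 over all 17427 genes tested, and from -7.14 to 6.87 over the 11844 with at least 10 reads. Of the 34 called, 8 averaged at least 10 reads. Alternatives were other pseudocounts, filters, scalings, a replicate block and each library left out. Library totals of 2334458 to 5689786 reads limit the precision of low genes. The intervals are limma's, from the spread of the compared values between libraries, and not from a count model. Symbols and coordinates are from GENCODE vM21 (GRCm38), matched by Ensembl identifier. Per-library values are given for members with at least 10 reads on average, and reads for the others. From the other lists, called genes and up to 4 of smallest p with at least 10 reads are named. The members and lists were chosen with earlier results of these data known.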

Additional observations from a re-analysis of the deposited data

How the results depend on the processing

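No member, other germline gene or silencer was called under any of 14 alternatives. Over all genes, 34 were called. The count was 52 with a pseudocount of 10 or with no filter, and 15 when only genes with at least 10 reads were fitted. It was 3 on recovered reads and 66 to 103 with any 1 of the 6 libraries left out. With the replicate number as a block it was 0, beside 1393 at an unadjusted p under 0.05. The values showed no pairing by replicate number (correlations of same-numbered deviations -0.0040, -0.04 and 0.0031). This does not settle whether same-numbered libraries were handled together. With 1 library left out, the members' median ran from -0.28 (without untreated replicate 3) to -0.0016 (without untreated replicate 1) and their count at an unadjusted p under 0.05 from 1 (without tamoxifen replicate 2) to 4, the other germline genes' from -0.14 to -0.040 and 1 to 5, and the silencers' from -0.13 to 0.048 and 0 to 3. The silencers' median was -0.21 on recovered reads, and their count 0 under the block. Of 350 member values under the alternatives, 26 changed direction, in 11 of 25 members. On recovered reads these were Stk31 (0.16), Sycp1 (0.11), Smc1b (0.34) and Hormad1 (0.16), with quantile normalization Tdrd1 (-0.031) and with median-of-ratios rescaling Smc1b (0.0043). With 1 library left out, the log2 fold change ran from -0.0020 to 0.26 for Dazl, from -0.27 to 0.43 for Tdrd1, from -0.018 to 0.31 for Piwil2, from -0.32 to 0.021 for Stk31, from -0.14 to 0.26 for Syce1, from -0.13 to 0.13 for Smc1b, from -0.25 to 0.24 for Stag3, from -0.16 to 0.087 for Hormad1, from -0.18 to 0.042 for Tex14 and from -0.53 to 0.33 for Hells. The cause of these changes was not tested. The 14 other members and the 9 other named genes kept their direction. With 1 library left out, values that kept their direction moved by over 1.5 times in other genes, running from -0.44 to -0.16 for Kit, from -0.74 to -0.20 for Ddx4, from -0.63 to -0.34 for Mov10l1, from -0.51 to -0.011 for Tdrkh, from 0.18 to 0.43 for Tex19.1, from -0.28 to -0.11 for Sycp1, from -0.37 to -0.061 for Syce2, from -0.41 to -0.20 for Rec8, from -0.40 to -0.18 for Dmc1, from 0.20 to 0.61 for Slc25a31, from 0.53 to 1.0 for Tex13b, from 0.41 to 0.82 for Prdm14, from -0.72 to -0.22 for Dnmt3a and from -0.38 to -0.13 for Uhrf1. Adjusted p over the alternatives ran from 0.105 to 0.716 for Tex11, 0.248 to 0.609 for Mael, 0.307 to 0.731 for Zcwpw1, 0.272 to 0.731 for Tex13b and 0.142 to 0.731 for Tex15. Depth limits 10 of the 35 members, which averaged under 10 reads.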

Other observations

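Reads of the listed spermatid genes were uneven. Of the 13 in the table, 4 had no read (Prm1, Prm2, Tnp1 and Pgk2), 6 had reads but averaged under 10, and Crem, Ldhc and Tnp2 averaged at least 10. Crem, a transcription factor with forms outside the testis, had 213 reads in all, and Ldhc, a testis lactate dehydrogenase, had 79. Tnp2, a transition protein of sperm chromatin, had 0 reads in 5 libraries and 991 in untreated replicate 2. Over all 84 other germline genes in the table, 8 had no read in any library (9.52%), against 3745 of all 22933 genes (16.3%). The others were Tdrd6, Nanos2, Figla and Bmp15. These genes were chosen for mention after their values were seen.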
